A study of Homo sapiens with 24 samples.

Results

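The 40 mitotic genes described here were followed in U2932 cells, a line grown from a human diffuse large B-cell lymphoma, after 2 reagents directed at the oncogene MYC. They are genes whose products drive entry into mitosis, build and move the spindle, hold and release chromosomes, or split the cell, and they were taken by gene symbol from both deposited tables. All 40 had a row in each table, of 61541 genes at 48 h and 19818 at 72 h. The libraries labelled PNA2 came from cells given a gamma peptide nucleic acid, which pairs with DNA or RNA through bases carried on a chain of amide units, at a labelled dose of 8 mM whose unit is doubtful, with 4 libraries at 48 h and 5 at 72 h. The 4 siRNA libraries came from cells electroporated with 500 nM siRNA for 48 h, and no electroporated control is labelled. The controls, labelled wild type and per the series' design text given PBS, had 6 libraries at 48 h and 5 at 72 h. Both reagents carry the label of a MYC knockdown. Nothing in the labels ties a replicate to its own culture, so the p-values measure the spread between these libraries, which may be technical. For siRNA, the entries for the cell line differ from U2932 in the last digit, and the extraction text names 48 h for every library, so the labelled line of the siRNA cells and the later time are in some doubt.

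Mitotic genes are transcribed in a wave late in the cell cycle. Cyclin-dependent kinase 1 with its cyclins A and B starts mitosis, Polo-like and Aurora kinases build the spindle, and the checkpoint holds back separation until every chromosome is attached. The anaphase-promoting complex then marks cyclin B and securin for destruction. Many of these promoters carry CCAAT boxes, bound by NF-Y, and a cell cycle genes homology region (CHR), bound by the DREAM complex in resting cells and by MuvB with B-MYB and FOXM1 in dividing cells. MYC is known for driving entry into the cycle from G1 in B cells. In bulk RNA a smaller share of dividing cells and less RNA per dividing cell cannot be told apart.

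The 48 h values are read counts that the authors had adjusted, and they were scaled here per library. The deposited values summed to 14.88 to 16.03 M reads per library in PNA2, 12.63 to 16.17 M in siRNA and 11.12 to 14.46 M in controls. The 72 h values are read counts divided by a size factor per library, with 11.25 to 13.69 M reads in PNA2 and 8.22 to 13.28 M in controls. At 48 h the libraries fell into batches A and B, read from tied low values and not named in the labels: A held PNA2 1 and 2, all siRNA libraries and controls 1, 2 and 4, and B held PNA2 3 and 4, control 3 and 2 controls without a number of their own. MYC went against the PNA2 label at 48 h, at 7198 to 8994 scaled reads in the libraries labelled PNA2 and 5349 to 7716 in controls (log2 change 0.24, adjusted p = 0.114 in limma; 0.29, adjusted p = 0.0432, without PNA2 replicate 2), and fell in siRNA, at 3576 to 4161 (log2 change -0.82, adjusted p = 0.000396). At 72 h it spanned 460 to 2032 normalized reads in the libraries labelled PNA2 and 826 to 2845 in controls (log2 change -0.18, adjusted p = 0.794). All 7 B cell markers were detected in every group, with CD74 highest, while the 7 T and NK cell markers summed to at most 71.5, the 7 myeloid markers to at most 45, and the 6 erythroid and megakaryocyte markers to at most 10.0, with PF4 and PPBP at 0 in all libraries. The 7 stroma and epithelium markers summed to 130 to 478 in PNA2, 278 to 303 in siRNA and 127 to 286 in controls over both times, with EPCAM the highest, and their part in the results was not tested.

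Promoter windows of 300 bases, from 250 before to 50 after the annotated start (RefSeq, GRCh38.p14), were at hand for 33 of the 40 genes. CCAAT, on either strand, was in 27 of the 33 (81.8%), against 42.1% of the 15843 protein-coding genes with a window. A CHR, searched on either strand as the letters TTTGAA or as the letters TTTAAA, was in 30 (90.9%), against 24.7%, and both motifs were in the same window in 23 (69.7%), against 10.4%. The E-box CACGTG, the sequence MYC binds best, was in 5 (15.2%), against 10.9%. The windows of 5 genes on which the results turn are printed below, 5′ to 3′ on the gene's strand, with each match to the CCAAT and CHR letters, on either strand, in capitals, and the E-box of PLK1 as well.
CCNB2, chr15:59104896-59105195 (forward strand): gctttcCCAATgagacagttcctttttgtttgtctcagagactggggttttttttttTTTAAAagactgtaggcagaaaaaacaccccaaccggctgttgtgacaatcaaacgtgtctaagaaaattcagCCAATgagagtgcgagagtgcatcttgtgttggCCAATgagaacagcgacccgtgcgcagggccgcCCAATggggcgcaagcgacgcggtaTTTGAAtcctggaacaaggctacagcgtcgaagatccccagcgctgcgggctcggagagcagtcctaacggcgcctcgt
CDC20, chr1:43358731-43359030 (forward strand): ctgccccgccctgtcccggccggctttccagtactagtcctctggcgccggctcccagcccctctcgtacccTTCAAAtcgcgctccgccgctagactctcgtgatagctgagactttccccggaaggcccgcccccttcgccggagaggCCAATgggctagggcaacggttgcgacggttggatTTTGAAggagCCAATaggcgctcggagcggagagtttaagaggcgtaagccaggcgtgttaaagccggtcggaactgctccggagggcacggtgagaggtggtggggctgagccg
PLK1, chr16:23678639-23678938 (forward strand): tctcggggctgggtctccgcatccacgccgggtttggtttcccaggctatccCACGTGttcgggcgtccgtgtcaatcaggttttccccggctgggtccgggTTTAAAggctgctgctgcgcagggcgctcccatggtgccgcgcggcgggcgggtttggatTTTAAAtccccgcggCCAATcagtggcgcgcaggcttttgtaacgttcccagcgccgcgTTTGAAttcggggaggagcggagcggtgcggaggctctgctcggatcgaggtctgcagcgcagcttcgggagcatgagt
TOP2A, chr17:40417847-40418146 (reverse strand): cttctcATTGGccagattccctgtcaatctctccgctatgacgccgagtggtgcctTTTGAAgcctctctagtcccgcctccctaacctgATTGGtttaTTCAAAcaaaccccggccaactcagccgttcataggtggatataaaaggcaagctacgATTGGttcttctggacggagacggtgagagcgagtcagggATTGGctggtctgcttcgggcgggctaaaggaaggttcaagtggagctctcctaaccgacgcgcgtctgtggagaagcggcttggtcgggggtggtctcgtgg
ASPM, chr1:197146620-197146919 (reverse strand): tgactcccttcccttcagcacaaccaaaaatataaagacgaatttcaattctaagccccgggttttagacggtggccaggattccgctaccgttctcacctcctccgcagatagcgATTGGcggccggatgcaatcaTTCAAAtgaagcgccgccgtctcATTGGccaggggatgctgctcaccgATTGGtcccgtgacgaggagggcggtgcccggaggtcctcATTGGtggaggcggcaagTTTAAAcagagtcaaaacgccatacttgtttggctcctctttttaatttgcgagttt
A match describes the letters only and is no evidence of a bound site. CCNB2 and CDC20 rose and TOP2A and ASPM fell in the libraries labelled PNA2 at 72 h, and all 4 windows hold both motifs. Of the genes with a window, both motifs were in 1 window in 5 of 5 that rose, 7 of 10 that fell and 11 of 18 that were not called at 72 h.

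Per kilobase of exon, CKS2, a small subunit of cyclin-dependent kinases, had the highest level in the 48 h controls, at 4269 ± 497 scaled reads per kb (SD, n = 6). CDC20, the activator of the anaphase-promoting complex, followed at 1902 ± 129, UBE2C, the ubiquitin-conjugating enzyme of that complex, at 1678 ± 219, and topoisomerase TOP2A at 1348 ± 194. CKS2 stood clear of the rest, while mean ± SD overlapped between CDC20 and UBE2C and between UBE2C and TOP2A. The same 4 genes led the 72 h controls in the same order, at 2698 ± 195, 1414 ± 105, 1178 ± 85.3 and 1122 ± 75.8 normalized reads per kb (SD, n = 5). These lengths count all annotated exons of a gene, and the order below CKS2 depends on that choice. The annotated principal transcript has 0.85 of 1.29 kb in UBE2C, 1.78 of 2.04 kb in CDC20, 5.76 of 6.44 kb in TOP2A and 2.23 of 4.76 kb in PLK1. KIF18A, a kinesin, and CDC25C, a phosphatase that activates CDK1, were lowest at 72 h, at 68.9 ± 13.1 and 68.5 ± 6.53 reads per kb. NUSAP1, a spindle protein, was deposited at 2.68 to 14.4 and PRC1, an organiser of the spindle midzone, at 11.1 to 27.8 at 48 h, against 2218 to 3399 and 1859 to 2578 at 72 h. Of their exonic bases, 62.2% and 57.6% are shared on the same strand with the genes ENSG00000285920 and ENSG00000284946, which have rows at 48 h and none at 72 h, so both 48 h values are uncertain. The cause of the low values was not tested. BUB1B shares 10.2% of its exonic bases with a gene on the same strand, and PLK1 and FOXM1 share 12.5% and 15.9% with genes on the opposite strand; whether the counting used strand is not given in the sources used here, so their reads may include those of the partner.

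At 48 h most of the 40 genes were slightly lower in the libraries labelled PNA2, with few calls, and the shift was close to 0 without 1 library. With all libraries, 4 of 40 genes (10%) fell, where 8.04% of all genes tested did, and none rose, where 8.11% of all genes did. The median log2 change was -0.14, against -0.001 over all genes, and 33 of 40 changes were negative; 9 of the 40 had an unadjusted p under 0.05. Without PNA2 replicate 1, 9 genes (22.5%) fell, where 10.9% of all genes did. Without PNA2 replicate 2, chosen for this check because it stood apart, 2 genes fell and 6 rose, the median was -0.005, and 23 of 40 changes were negative; 8.69% of all genes then fell and 8.87% rose. Within batch A, which holds that library, the median over the 39 genes tested was -0.24, and within batch B it was -0.065. Without rescaling of the libraries the median was 0.059, against 0.19 over all genes, with 0 genes lower and 1 (2.5%) higher, where 1.18% of all genes were lower and 14.2% higher.

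**Figure D1:**
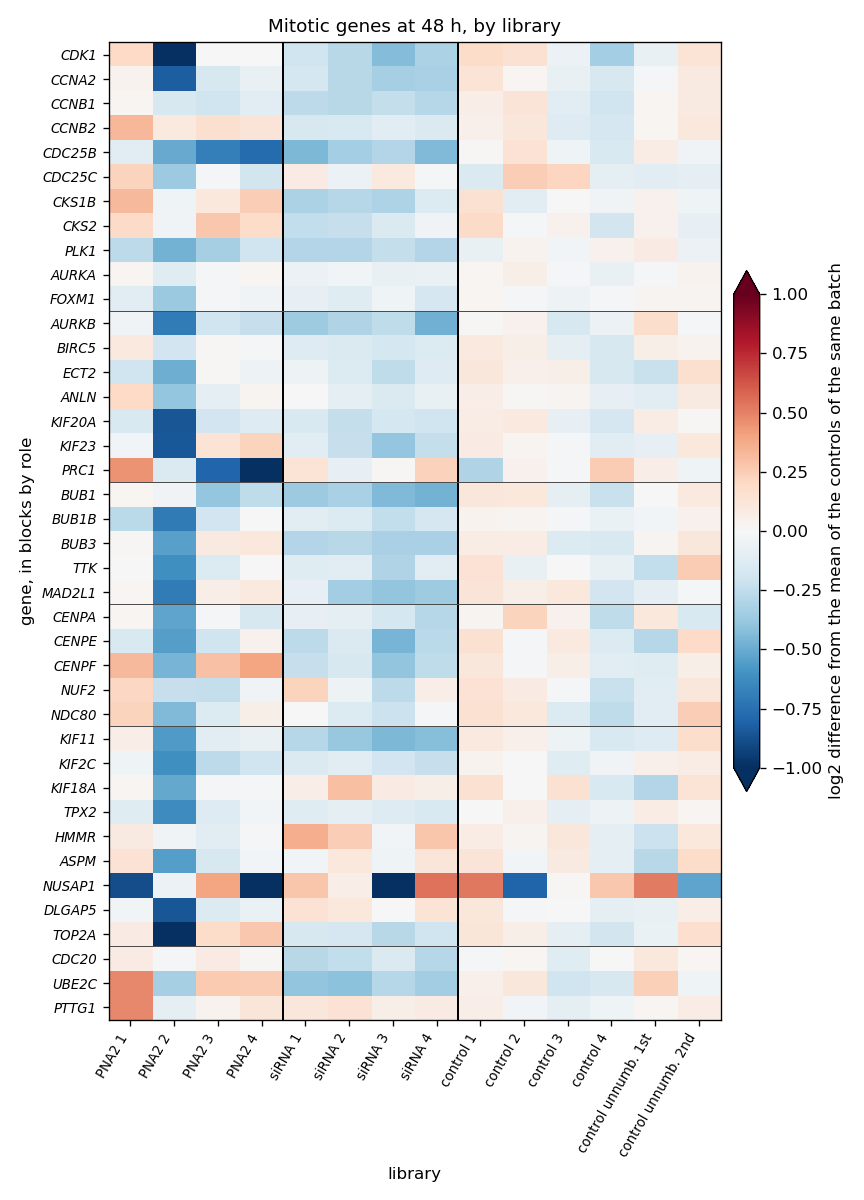
Log2 difference of each of the 40 genes (rows, in blocks by role) from the mean of the controls of the same batch, in each 48 h library (columns: PNA2, siRNA, control); the colour scale ends at 1 in each direction. PNA2 replicate 2 is low across nearly every gene, the siRNA libraries are slightly low, and the NUSAP1 and PRC1 rows are uncertain.

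PNA2 replicate 2 lay below the mean of its batch's controls in 39 of 40 genes, with a median log2 difference of -0.48, while the median over all genes was -0.004. It was the lowest of all 14 libraries in 27 of the 38 genes left when NUSAP1 and PRC1 are set aside. The other libraries labelled PNA2 had medians of 0.021, -0.058 and -0.018 (replicates 1, 3 and 4). The genes took 0.459% of the deposited total in PNA2 replicate 2 and 0.53% to 0.599% in the other PNA2 libraries, against 0.559% to 0.633% in controls. Markers of B cells summed to 50554 in that library and 85724 to 90061 in the other PNA2 libraries, against 63420 to 74017 in controls, and the T and NK cell markers, nearly all CD8A, to 71.5 against 1.09 to 23.1 in controls. The part of either in its low mitotic values was not tested.

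CDC25B and PLK1 were the calls that held without that library. CDC25B (chromosome 20, 3786772 to 3806121, in GRCh38 as for all gene positions here), a phosphatase that activates CDK1 at the start of mitosis, had 4251, 3226, 3152 and 2967 scaled reads in PNA2 replicates 1 to 4, against a lowest value of 4114, a median of 4920 and a highest of 5331 in controls. Only PNA2 replicate 1 reached into the control range. The log2 change was -0.51 (SE 0.10, adjusted p = 0.00281), and -0.49 without PNA2 replicate 2 (adjusted p = 0.00166, range over the alternatives 6.64e-05 to 0.115). PLK1 (chromosome 16, 23677656 to 23690367), the Polo-like kinase that acts throughout mitosis, had 3621, 3136, 3149 and 3453 scaled reads in PNA2 replicates 1 to 4, against 3815 to 4468 in controls, with a median of 4160. Its groups did not overlap, and the log2 change was -0.32 (SE 0.06, adjusted p = 0.00398), or -0.27 without PNA2 replicate 2 (adjusted p = 0.00278, range over the alternatives 0.00278 to 0.498).

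BUB1B and KIF2C also fell with all libraries, and were no longer called without PNA2 replicate 2. BUB1B (chromosome 15, 40161023 to 40221136), a checkpoint kinase-like protein that restrains CDC20, had 1934, 1426, 1820 and 2081 scaled reads in PNA2 replicates 1 to 4, against 2043 to 2394 in controls, with a median of 2186. KIF2C (chromosome 1, 44739818 to 44767767), a kinesin that takes microtubules apart at centromeres, had 1862, 1257, 1526 and 1596, against 1679 to 1973 in controls, with a median of 1905. The lowest value of each gene was that of PNA2 replicate 2, and 1 PNA2 value of each lay within the control range. The log2 changes were -0.29 (SE 0.09, adjusted p = 0.0374) and -0.28 (SE 0.09, adjusted p = 0.0396), and without PNA2 replicate 2 they were -0.16 each (adjusted p = 0.0706 for BUB1B and 0.0828 for KIF2C). The BUB1B call was also lost on leaving out any 1 of 8 other libraries, namely controls 1, 2 and 4, the second unnumbered control, PNA2 replicate 3 and siRNA replicates 1, 2 and 4, with adjusted p from 0.0511 to 0.0809 over all 9. The KIF2C call was lost without any 1 of 12 libraries, all but control 3 and PNA2 replicate 1, with adjusted p from 0.0535 to 0.0828.

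The 6 genes that rose without PNA2 replicate 2 were CENPF, a large kinetochore protein (log2 change 0.34, adjusted p = 0.00179), UBE2C (0.35, 0.00786), CKS1B, the sister of CKS2 (0.23, 0.0294), PTTG1, the securin that guards separase (0.23, 0.0301), cyclin B2 gene CCNB2 (0.22, 0.0363) and CKS2 (0.21, 0.048), all by limma's moderated test. With all libraries their changes lay between 0.14 and 0.18 and none passed the test, with adjusted p from 0.09 for CCNB2 to 0.475 for CENPF. TOP2A, which untangles sister chromatids, had 10063, 4108, 8862 and 9371 scaled reads in PNA2 replicates 1 to 4, against 7276 to 10354 in controls, with a median of 8565. CDK1 itself had 1851, 779, 1394 and 1387, against 1271 to 1829 in controls, with a median of 1430. Outside PNA2 replicate 2, the PNA2 values of TOP2A lay within the range of the controls of both batches. Against batch B controls alone, at 7276 to 8743, TOP2A was above them in PNA2 replicates 3 and 4. The CDK1 values lay within the range of all controls or up to 1851 against a control maximum of 1829.

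**Figure D2:**
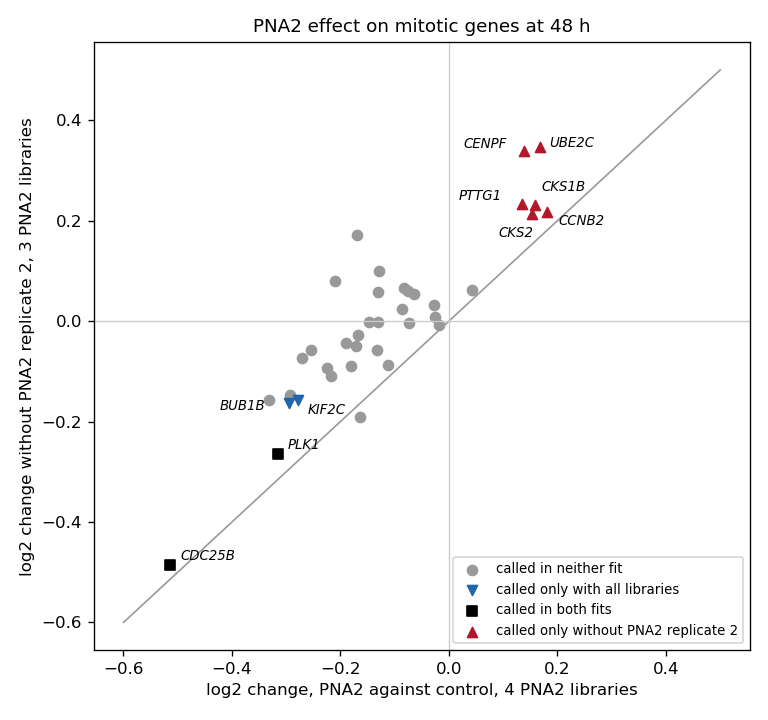
Log2 change in the libraries labelled PNA2 against controls at 48 h for 38 genes, with all 4 PNA2 libraries (x axis) and without replicate 2 (y axis); the line marks equal values and the symbols mark calls at an adjusted p under 0.05 in either fit. Nearly all points lie above the line, CDC25B and PLK1 are low in both fits, and 6 genes are called higher in the second fit alone.

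The PNA2 effect was also set between the batches, as the change in batch A minus that in batch B. No gene of the 40 passed, where 1.13% of all genes tested were higher and 1.37% lower in limma, and 6 of the 40 had an unadjusted p under 0.05. They were PRC1 (log2 difference 1.18, SE 0.41, adjusted p = 0.118), whose 48 h row is uncertain, CDC25B (0.42, SE 0.16, 0.146), the kinesin KIF23 (-0.61, SE 0.24, 0.15), BUB1B (-0.39, SE 0.15, 0.153), TOP2A (-0.79, SE 0.34, 0.192) and BUB1 (0.31, SE 0.14, 0.225). KIF23, a motor of the spindle midzone, had 1077 and 608 scaled reads in PNA2 replicates 1 and 2 of batch A, where controls had 1014 to 1161, and 1000 and 1061 in PNA2 replicates 3 and 4 of batch B, where controls had 861 to 978. Batch A holds only PNA2 replicates 1 and 2, so leaving out either leaves 1 library in that arm, which is then assumed to vary like the other groups. With replicate 2 alone 19 genes (47.5%) were lower in batch A, where 18.9% of all genes were, and with replicate 1 alone none was lower and 2 (5%) were higher, CDC25B (0.62, adjusted p = 0.0135) and PTTG1 (0.41, adjusted p = 0.044), where 1.83% of all genes were higher.

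In the siRNA libraries the genes were slightly lower at 48 h. Of the 40 genes, 6 (15%) fell, where 8.51% of all genes tested did, and none rose, where 8.72% did, with a median log2 change of -0.13 against -0.013 over all genes and 34 of 40 changes negative; 9 had an unadjusted p under 0.05. Each siRNA library had a negative median over the genes relative to the controls of its batch, from -0.24 to -0.13, with 31 to 36 of 40 genes below; control 4 of the same batch lay as low as the highest of them, at -0.12 with 37 of 40 below. All 3 groups share 1 estimate of the spread and 1 batch term, so PNA2 replicate 2 also touched this count and the median. Without it 18 genes (45%) fell, where 15.8% of all genes did, and the median was -0.18. Without rescaling none fell, where 0.523% of all genes did, and the median was 0.10, against 0.22 over all genes. Batch B holds no siRNA library and gives no value for it. Within batch A, 4 of 39 fell (10.3%), where 8.0% of all genes did, with a median of -0.13.

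BUB1 (chromosome 2, 110637698 to 110678114), the checkpoint kinase that seats other checkpoint proteins on kinetochores, had 1862, 1916, 1765 and 1721 scaled reads in siRNA replicates 1 to 4, against 2049 to 2593 in controls, with a median of 2461. The groups did not overlap, with a log2 change of -0.46 (SE 0.09, adjusted p = 0.00409). CDC25B had 3357, 3607, 3737 and 3367, all below the lowest control at 4114 (log2 change -0.46, SE 0.11, adjusted p = 0.00869). PLK1 had 3539, 3536, 3679 and 3548, all below the lowest control at 3815 (-0.26, SE 0.07, adjusted p = 0.0182). CCNB1, the main mitotic cyclin, had 2876, 2843, 2933 and 2828 scaled reads, against 2947 to 3779 in controls, with a median of 3317, and did not overlap them (-0.28, SE 0.08, adjusted p = 0.0241).

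CDC20 had 3338, 3419, 3671 and 3334 scaled reads in the siRNA libraries, against 3403 to 4098 in controls, with a median of 3994, and overlapped them through control 3 (-0.24, SE 0.07, adjusted p = 0.024). KIF11, the kinesin that pushes spindle poles apart, had 1831, 1721, 1638 and 1666, against 1756 to 2400 in controls, with a median of 2091 (-0.35, SE 0.11, adjusted p = 0.0447). Its siRNA replicate 1 lay within the control range. The BUB1 and CDC25B calls held on leaving out any 1 library. The others did not: CCNB1 was lost without controls 1 or 2 or siRNA replicates 1, 2 or 4 (adjusted p 0.0576 to 0.114), PLK1 without controls 2 or 4 or siRNA replicates 1, 2 or 4 (0.0522 to 0.0983), and CDC20 without controls 1, 2 or 4 or siRNA replicates 1, 2 or 4 (0.0611 to 0.0905). KIF11 was lost without any 1 of 12 libraries, all but control 3 and PNA2 replicate 2 (0.0522 to 0.169). The count fell to 3 (7.5%) without controls 1 or 4, where 3.99% and 6.84% of all genes fell. It fell to 2 (5%) without control 2 or siRNA replicates 1, 2 or 4, where 3.33% to 5.16% of all genes did.

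Set against siRNA directly, 6 of the 40 genes (15%) were higher in the libraries labelled PNA2, where 12% of all genes tested were, and 1 (2.5%) was lower, where 11.5% were. The median log2 difference was -0.022, against 0.004 over all genes. Without PNA2 replicate 2, 13 genes were higher and none lower, with a median of 0.17, where 14.6% of all genes were higher and 13.3% lower. This comparison shares its libraries with both comparisons against controls. Without PNA2 replicate 1, 2 (5%) were higher and 4 (10%) lower, where 11.5% and 14.1% of all genes were. Without PNA2 replicate 4 or siRNA replicates 1 or 2, 3 (7.5%) were higher, where 9.26% to 9.93% of all genes were. Of the genes that were higher, 3 regulate mitotic entry (CKS1B, CCNB2 and CKS2), 2 belong to the anaphase-promoting complex pathway (CDC20 and UBE2C) and 1 to the checkpoint (BUB1).

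CKS1B (chromosome 1, 154974653 to 154979249) had 1342, 1042, 1041 and 1149 scaled reads in PNA2 replicates 1 to 4, against 862, 882, 866 and 978 in siRNA replicates 1 to 4, with no overlap (log2 difference 0.41, SE 0.09, adjusted p = 0.0052). CCNB2 (chromosome 15, 59105078 to 59125045) had 2123, 1803, 1773 and 1734 in PNA2, against 1505, 1516, 1570 and 1523 in siRNA (0.34, SE 0.08, adjusted p = 0.00937). CDC20 (chromosome 1, 43358955 to 43363203) had 4294, 4026, 3917 and 3736 in PNA2, all above the siRNA values given (0.28, SE 0.07, adjusted p = 0.0106). UBE2C (chromosome 20, 45812576 to 45816957) had 3191, 1810, 2430 and 2419 in PNA2, against 1734, 1719, 1871 and 1794 in siRNA, and overlapped them only through PNA2 replicate 2 (0.49, SE 0.15, adjusted p = 0.0263). CKS2 had 3152, 2691, 2929 and 2769 in PNA2, against 2326, 2356, 2491 and 2685 in siRNA (0.29, SE 0.09, adjusted p = 0.037). BUB1 was the sixth (0.30, SE 0.10, adjusted p = 0.0408). DLGAP5, a spindle microtubule protein, was the one lower gene, at 1446, 817, 1327 and 1400 in PNA2, against 1627, 1592, 1472 and 1622 in siRNA (-0.43, SE 0.14, adjusted p = 0.0382).

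The CKS1B and CDC20 calls held on leaving out any 1 library, and CCNB2 was lost only without PNA2 replicate 1 (0.23, adjusted p = 0.0535). UBE2C was lost without PNA2 replicates 1, 3 or 4 or siRNA replicates 1, 2 or 4 (adjusted p 0.0523 to 0.175), and DLGAP5 without PNA2 replicate 2, the second unnumbered control or any 1 siRNA library (0.0512 to 0.138). CKS2 was lost without any 1 of 10 libraries (0.0539 to 0.149), the exceptions being controls 3 and 4, PNA2 replicate 2 and siRNA replicate 4. BUB1 was lost without any 1 of 11 (0.0534 to 0.172), the exceptions being control 4, the second unnumbered control and PNA2 replicate 3. Genes named as pseudogenes of CKS1B (6), UBE2C (4) and CCNB2, CDC20, BUB1 and DLGAP5 (1 each) are annotated, so reads could have been split between copies.

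At 72 h more of the genes fell in the libraries labelled PNA2 than among all genes, while the share that rose was near that of all genes. Of the 40, 10 (25%) fell, where 11.7% of all genes tested did, and 6 (15%) rose, where 12.1% did, and the median log2 change was -0.11 against -0.005 over all genes. All 3 genes of the anaphase-promoting complex pathway rose (CDC20, UBE2C and PTTG1), as did 2 of the 11 regulators of mitotic entry (CCNB2 and CKS1B) and the centromeric histone CENPA. The genes that fell were 4 of 9 for spindle motors, spindle proteins and chromosome structure (ASPM, HMMR, KIF11 and TOP2A), 3 of 7 for the chromosomal passenger complex and cytokinesis (KIF23, PRC1 and ECT2), 2 of 5 for the kinetochore (CENPE and NUF2) and 1 of 5 for the checkpoint (BUB1B). The 40 genes took 0.498% to 0.586% of the total in PNA2 libraries, against 0.611% to 0.681% in controls. The B cell markers summed to 65244 to 82595 in PNA2, against 50390 to 56912 in controls, and the T and NK cell markers to 27.9 to 51.0, against 8.63 to 33.4; the part of these in the results was not tested. In edgeR's quasi-likelihood test on the recovered reads 6 (15%) rose and 11 (27.5%) fell. That test called 1395 genes higher (11.6%) and 1442 lower (12.0%) in all.

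**Figure D3:**
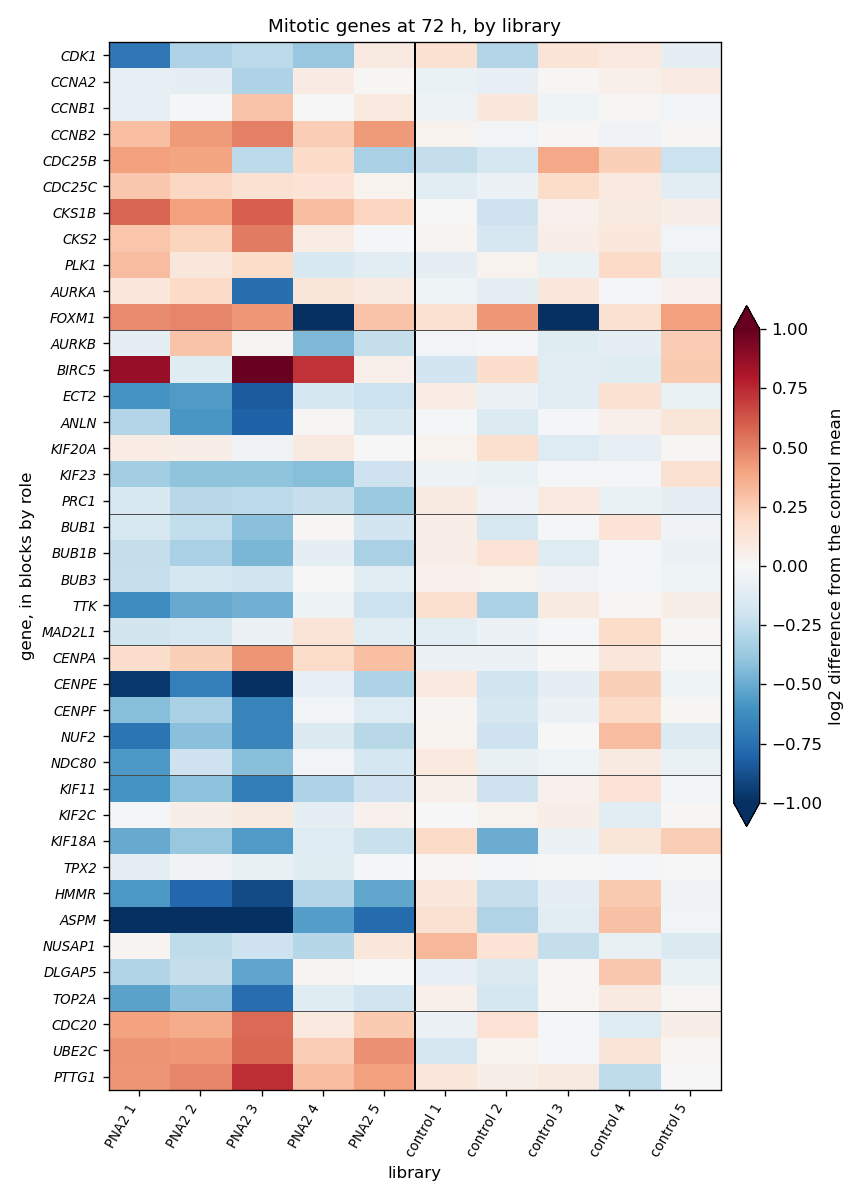
Log2 difference of each of the 40 genes (rows, in blocks by role) from the control mean, in each 72 h library (columns: PNA2, control); the colour scale ends at 1 in each direction. CCNB2, CKS1B, CDC20, UBE2C and PTTG1 are high and ASPM, HMMR and KIF11 low across the PNA2 libraries, most strongly in replicate 3 and least in replicate 4 for most of them, and FOXM1 is low in 1 library of each group.

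CCNB2 had 1565, 1711, 1800, 1512 and 1707 normalized reads in PNA2 replicates 1 to 5, against 1305, 1244, 1285, 1242 and 1285 in controls 1 to 5. Every PNA2 value was above every control (log2 change 0.38, SE 0.07, adjusted p = 0.00253). UBE2C had 2065, 2052, 2252, 1797 and 2086 in PNA2, against 1349, 1550, 1506, 1653 and 1539 in controls, with no overlap (0.43, SE 0.08, adjusted p = 0.00305). PTTG1 (chromosome 5, 160421822 to 160428744) had 2516, 2591, 3080, 2290 and 2461 in PNA2, against 1985, 1923, 1969, 1548 and 1858 in controls, again with no overlap (0.48, SE 0.09, adjusted p = 0.00477). CKS1B averaged 894 ± 104 in PNA2 and 665 ± 52.5 in controls (SD, n = 5 each; log2 change 0.42, adjusted p = 0.0088). CDC20 averaged 3668 ± 439 and 2884 ± 215 (0.34, adjusted p = 0.017), and CENPA, which marks the site of the centromere, 442 ± 34.5 and 367 ± 18 (0.27, adjusted p = 0.0299). Of these, CDC20 alone overlapped between the groups. The CENPA call was lost without controls 1, 2, 3 or 5 or PNA2 replicates 2 or 5 (adjusted p 0.0519 to 0.0704), and the other 5 held on leaving out any 1 library.

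ASPM (chromosome 1, 197084128 to 197146694), a protein of the spindle poles, changed most. It had 1415, 1635, 968, 2553 and 2187 normalized reads in PNA2 replicates 1 to 5, against 4152, 3028, 3459, 4573 and 3661 in controls 1 to 5, with no overlap (log2 change -1.17, SE 0.23, adjusted p = 0.00429). KIF23 (chromosome 15, 69414246 to 69448427) had 719, 694, 694, 680 and 794 in PNA2, against 885, 873, 906, 900 and 1017 in controls (-0.36, SE 0.07, adjusted p = 0.00568). HMMR (chromosome 5, 163460203 to 163491945), a microtubule-associated protein of the spindle, had 510, 439, 408, 619 and 529 in PNA2, against 816, 645, 707, 910 and 740 in controls (-0.61, SE 0.13, adjusted p = 0.00603). Neither gene overlapped between the groups. Of the other genes that fell, KIF11 changed by -0.44 (SE 0.10, adjusted p = 0.01), PRC1 by -0.26 (SE 0.07, 0.0151) and ECT2, which activates RhoA at the cleavage furrow, by -0.48 (SE 0.12, 0.0165).

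BUB1B averaged 2016 ± 187 normalized reads in PNA2 and 2459 ± 182 in controls (SD, n = 5 each; log2 change -0.29, adjusted p = 0.0217), and TOP2A 5509 ± 971 and 7226 ± 488 (-0.41, adjusted p = 0.0221). CENPE, the kinetochore kinesin, averaged 538 ± 156 in PNA2 and 801 ± 95.1 in controls (-0.61, adjusted p = 0.0254), and NUF2, part of the complex that grips microtubules, 530 ± 91.5 and 720 ± 103 (-0.45, adjusted p = 0.0292). The groups of all 4 overlapped, and each call could be lost with 1 library: BUB1B without control 1 or PNA2 replicate 2 (adjusted p 0.0518 to 0.0552), TOP2A without controls 1 or 4 or PNA2 replicate 1 (0.0512 to 0.0536), CENPE without controls 1 or 4 or PNA2 replicates 1, 2 or 3 (0.0502 to 0.0629), and NUF2 without controls 1, 3 or 4 or PNA2 replicates 1, 2 or 3 (0.0546 to 0.0696). Without PNA2 replicate 4, 16 genes (40%) fell, where 13.9% of all genes did, and without control 1, 6 (15%) did, where 8.35% of all genes did. Among the 24 genes not called, CDK1 changed by -0.32 (adjusted p = 0.114), PLK1 by 0.07 (0.627), CCNB1 by 0.06 (0.615) and AURKB, the kinase of the chromosomal passenger complex, by -0.09 (0.628).

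Every gene that rose has a shorter exonic length than every gene that fell. The exons of the 6 that rose span 1.29 to 2.8 kb, with a median of 2.02 kb, and those of the 10 that fell 3.36 to 10.89 kb, with a median of 5.52 kb. ASPM, with the largest change, has 10.89 kb, and CENPF, with 11.69 kb, changed by -0.32 and was not called (adjusted p = 0.0638). Across the 40 genes Spearman's rho between log2 change and exonic length was -0.66, and across all 11981 genes with a length it was -0.38; these are descriptions across genes of the same 10 libraries. Over all genes, the fifth with the shortest exons, up to 2.95 kb, had a median change of 0.24, and the fifth with the longest, from 8.27 kb, of -0.17. At 48 h the same rho was -0.01 over all genes and -0.24 over the 40.

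**Figure D4:**
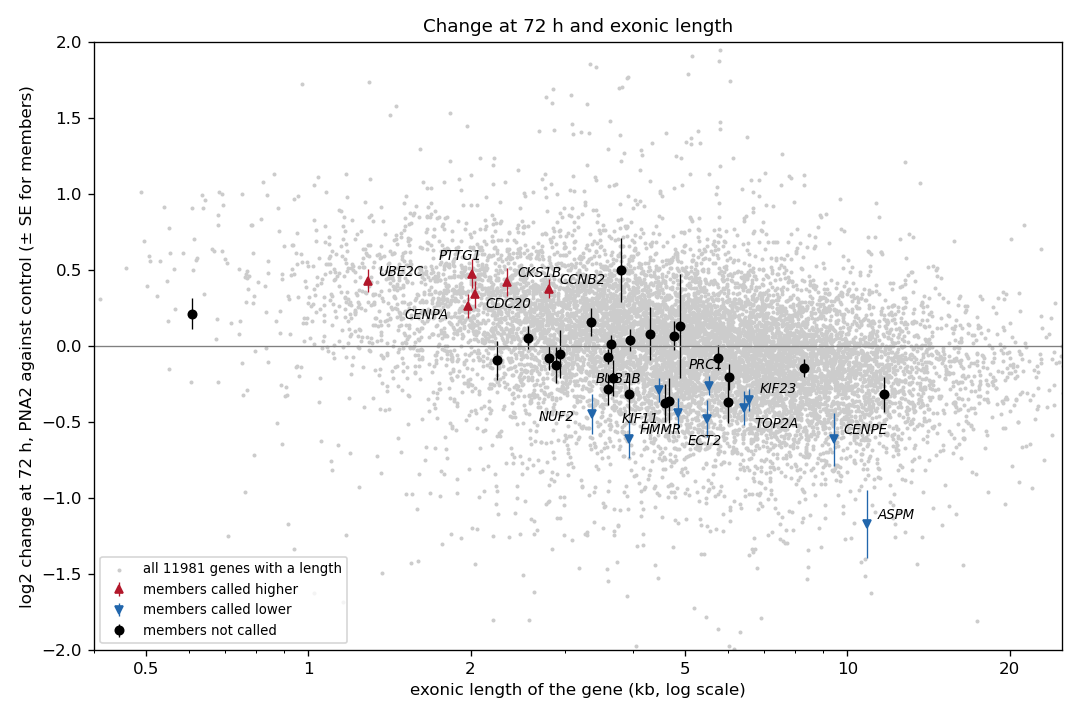
Log2 change at 72 h, PNA2 against control, and exonic length in kb (log scale) for 11981 genes in grey and the 40 mitotic genes in colour with their SE; 69 genes lie outside the axes. Genes of the set called higher lie at 2.8 kb or less and those called lower at 3.36 kb or more, along the slope of the grey cloud.

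The length trend differed between libraries. Among the PNA2 libraries, its widest and narrowest gaps were in the same replicates as those of the 6 and the 10 genes. Those genes were called from these same libraries, so the signs of their PNA2 medians were set by that choice, and the medians are a description only. PNA2 replicate 3 had the widest gap over all genes, with medians relative to the control mean of 0.45 over the short genes and -0.36 over the long genes of those outer groups, and its medians were 0.57 over the 6 genes that rose and -0.73 over the 10 that fell. PNA2 replicate 4 had the narrowest, with 0.14 and -0.029 over all genes, and 0.25 and -0.20 over the 6 and the 10. Controls ranged from -0.033 to 0.043 over the short genes and from -0.033 to 0.035 over the long, and their medians ran from -0.031 to 0.028 over the 6 and from -0.186 in control 2 to 0.147 in control 4 over the 10. Control 2 thus came close to PNA2 replicate 4 over the 10 genes with no such trend over all genes (0.025 and -0.003). Between PNA2 replicates 1 and 2 the order was not the same: replicate 1 had 0.26 and -0.14 over all genes and 0.42 and -0.58 over the 6 and the 10, and replicate 2 had 0.28 and -0.17, and 0.42 and -0.42. When each library's length trend was removed, an alternative added after the data were seen, 2 genes rose (CCNB2 by 0.23, adjusted p = 0.0156, and PTTG1 by 0.24, adjusted p = 0.0292) (5% of the 40) and 12 fell (30%), where 9.98% of all genes rose and 9.9% fell. The 12 included ASPM (-0.997, adjusted p = 0.00432), HMMR (-0.66, 0.00741), KIF11 (-0.42, 0.0141) and KIF23 (-0.27, 0.0206), while UBE2C (0.095, 0.382), CKS1B (0.22, 0.071), CDC20 (0.11, 0.24), CENPA (0.026, 0.828) and CENPE (-0.45, 0.0504) were no longer called. CKS2, the shortest of the set at 0.61 kb, had a positive change before (0.21, adjusted p = 0.137) and a called negative one after (-0.27, adjusted p = 0.0152). Whether the trend is technical or a property of the cells was not tested.

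**Figure D5:**
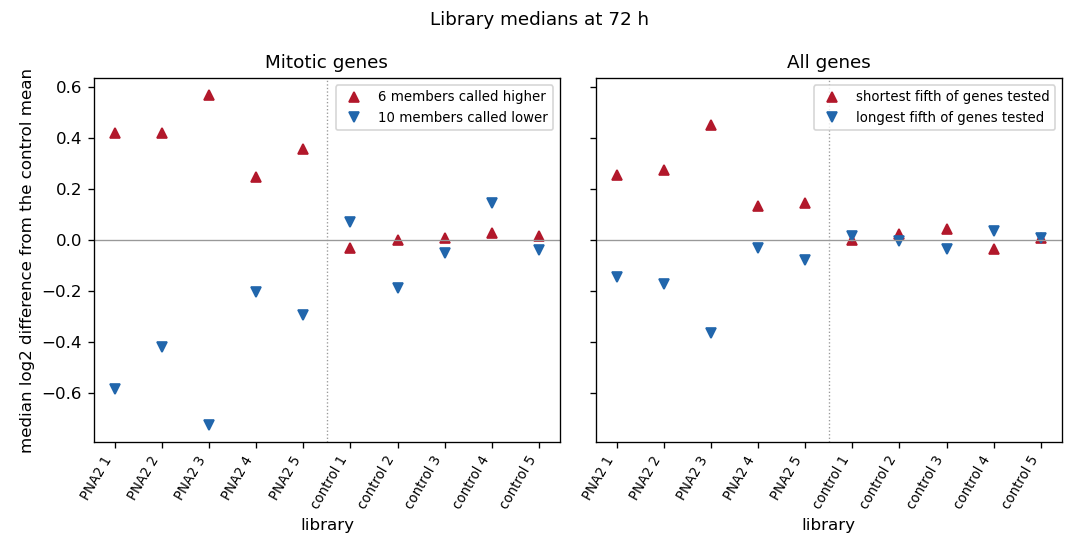
Median log2 difference from the control mean in each 72 h library, over the 6 genes called higher and the 10 called lower (left) and over the fifth of all genes with the shortest and the fifth with the longest exons (right). PNA2 replicate 3 shows the widest gap and replicate 4 the narrowest in both panels. The genes on the left were called from these same libraries.

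The genes ranged widely in how much they varied within groups at 72 h. Among genes of like level, within-group spread was at the 98th percentile for ASPM, 95.8 for CDC25B, 91.8 for BIRC5 and 87.2 for AURKA, and at 9.6 for CCNB2, 7.4 for KIF20A, 6 for CDC25C, 5.2 for CENPA and 0.2 for TPX2. FOXM1, the transcription factor of the late cell cycle, had 1987, 2005, 1937, 715 and 1750 normalized reads in PNA2 replicates 1 to 5, against 1592, 1932, 648, 1591 and 1900 in controls 1 to 5. One library of each group lay far below the others, and the log2 change was 0.14 (SE 0.34, adjusted p = 0.797). Its within-group spread lay at the 97.2nd percentile of genes of like level. BIRC5, the survivin subunit of the chromosomal passenger complex, had 949, 477, 1031, 858 and 537 in PNA2, against 453, 585, 478, 476 and 623 in controls (0.50, SE 0.21, adjusted p = 0.101; 0.66, adjusted p = 0.0328, without PNA2 replicate 2). AURKA, the kinase of the spindle poles, had 758 in PNA2 replicate 3 and 1362 to 1458 in the other PNA2 libraries, against 1200 to 1371 in controls. CDC25B, which had fallen at 48 h, spanned 3519 to 5868 in PNA2 and 3752 to 5740 in controls at 72 h (0.08, SE 0.17, adjusted p = 0.754). TPX2, an activator of AURKA, had 3163 to 3384 in PNA2, all below the controls at 3393 to 3488, and did not pass (-0.07, SE 0.05, adjusted p = 0.314).

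The changes in the libraries labelled PNA2 at 48 h and 72 h, which share no library, had the same sign in 28 of the 38 genes with reliable rows (73.7%), and in 22 of 38 without PNA2 replicate 2 at 48 h. Over the 11341 genes tested at both times the sign was the same in 60.7%. Spearman's rho was 0.28 across the 38 genes, 0.19 without that library, and 0.32 across all 11341. BUB1B was the one gene that fell at both times with all libraries in. CDC25B and PLK1 fell at 48 h and were not called at 72 h, and the difference between the times was not tested because the tables were normalized separately.

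Other mitotic genes were read from a list of 105 further genes. It held kinetochore, cohesin, condensin, spindle and anaphase-promoting complex genes. It also held mitotic kinases, inhibitors such as CDKN1A and CDKN1B, phosphatase control genes, and genes of the DREAM and B-MYB complexes. In the libraries labelled PNA2 at 48 h, 13 fell (12.4%, where 8.04% of all genes did) and 1 rose (0.952%, where 8.11% did), with a median log2 change of -0.12. Without PNA2 replicate 2, 11 fell (10.5%, against 8.69%) and 4 rose (3.81%, against 8.87%). The kinetochore gene CENPT changed by -0.57 (733 ± 49.1 in PNA2, n = 4, and 1086 ± 61.2 scaled reads in controls, n = 6, adjusted p = 0.00013), and the complex subunits ANAPC2 by -0.41 (adjusted p = 0.00106) and ANAPC16 by 0.33 (adjusted p = 0.00206). In siRNA, with all libraries in, the share that fell was near that of all genes, with 8 lower (7.62%, against 8.51%) and 3 higher (2.86%, against 8.72%). Among them in limma were CENPH at -0.59 (adjusted p = 0.00121), ANAPC1 at -0.43 (adjusted p = 0.00276) and the kinesin KIF18B at -0.49 (adjusted p = 0.00536). Without PNA2 replicate 2, 29 fell in siRNA (27.6%, against 15.8%) and 8 rose (7.62%, against 15.0%). Against siRNA, 4 of the 105 were higher in PNA2 (3.81%, against 12% of all genes) and 12 lower (11.4%, against 11.5%), with a median of -0.081. This lean depended on PNA2 replicate 2. Without it 18 were higher (17.1%, against 14.6%) and 4 lower (3.81%, against 13.3%), with a median of 0.052. At 72 h 20 fell (19%, against 11.7%) and 6 rose (5.71%, against 12.1%) in PNA2. The complex subunit ANAPC4 had the lowest adjusted p of the list in limma (-0.55, adjusted p = 0.00263). ANAPC2 (-0.49, adjusted p = 0.00309) and ANAPC16 (0.41, adjusted p = 0.00325) followed and kept the signs of their 48 h changes.

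Of 30 genes of DNA replication and the G1/S step, 6 fell (20%, against 8.04% of all genes) and none rose (against 8.11%) in the libraries labelled PNA2 at 48 h, and 8 had an unadjusted p under 0.05. The median was -0.19, and -0.005 without PNA2 replicate 2, where 6 fell (20%, against 8.69%) and 2 rose (6.67%, against 8.87%). UHRF1 changed by -0.58 (adjusted p = 0.00243), cyclin E1 gene CCNE1 by -0.63 (adjusted p = 0.00542) and the polymerase subunit POLD1 by -0.47 (adjusted p = 0.0106). In siRNA none of the 30 passed in limma, where 8.51% of all genes fell and 8.72% rose, and 4 had an unadjusted p under 0.05. Against siRNA 4 were lower in PNA2 (13.3%, against 11.5%) and none higher (against 12%), with a median of -0.26. Without PNA2 replicate 2, 6 fell (20%, against 15.8%) and 3 rose (10%, against 15.0%) in siRNA. Against siRNA 6 were then higher in PNA2 (20%, against 14.6%) and 3 lower (10%, against 13.3%), with a median of 0.044. At 72 h 6 rose (20%, against 12.1%) and 4 fell (13.3%, against 11.7%) in limma, among them the helicase subunit MCM2 (0.33, adjusted p = 0.00379) and the polymerase POLE (-0.49, adjusted p = 0.00045). With each library's length trend removed, 5 of the 30 rose and 9 fell, where 9.98% of all genes rose and 9.9% fell. A last list held the D cyclins of G1 and their kinases (CCND1, CCND2, CCND3, CDK4 and CDK6). CCND3 fell at 48 h (-0.37, adjusted p = 0.0146; -0.20, adjusted p = 0.301, within batch A and -0.54, adjusted p = 0.00142, within batch B) and rose at 72 h (0.73, adjusted p = 0.0214) in PNA2. CCND1 and CCND2 averaged 54.4 ± 26.5 and 69.4 ± 28.1 scaled reads in PNA2 (SD, n = 4), against 25 ± 9.15 and 32.9 ± 9.98 in controls (n = 6), and rose at 48 h by 1.06 (adjusted p = 0.0474) and 1.02 (adjusted p = 0.0346). Both rises were called in limma within batch B (2.12, adjusted p = 0.00127, and 1.79, adjusted p = 0.00277) and not within batch A (0.005, adjusted p = 0.992, and 0.25, adjusted p = 0.58). With all libraries the difference between batches passed for CCND1 (-2.12, adjusted p = 0.0265) and not for CCND2 (-1.54, adjusted p = 0.0912) or CCND3 (0.33, adjusted p = 0.258). Leaving out PNA2 replicate 2 leaves 1 PNA2 library in batch A. The differences were then -2.125 for CCND1, -2.01 for CCND2 and 0.58 for CCND3.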

How the data were processed

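RNA sequencing of 24 libraries was read from 2 deposited tables. Trimmomatic, HISAT2 2.2.1, SAMtools 1.7, HTSeq 0.11.0, DESeq2 and GRCh38 are named in the submitters' processing notes. The 48 h table has no unit in the labels: the authors deposited read counts with fractions and negative values (lowest -223.8), read here from the values as batch-adjusted counts and treated as another unit, not as counts. In the 72 h table the authors deposited a signal, read counts divided by a size factor, from which 100% of values came back as whole reads within 0.01.

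At 48 h, values were floored at 0, scaled by TMM (edgeR 4.0.16), and fitted as log2(value + 1) with limma 3.58.1 on group and batch over genes reaching 10 in at least 4 libraries. At 72 h the same fit ran on group, over genes reaching 10 in at least 5 libraries. The batches were read from 6670 low genes, where libraries of one batch were tied in 25.9% to 40.9% and libraries of different batches in 0%. Fold changes are on the log2(value + 1) scale and understate changes of low genes. P-values were Benjamini-Hochberg adjusted over every gene in the fit and called under 0.05; edgeR's quasi-likelihood test and DESeq2 1.42.0 on recovered reads were alternatives, and the fits were tested on simulated data. The 4 comparisons were run, beside the batch difference. The members, lists and comparisons were chosen with earlier results of these data known. Genes named beyond the 40 are among the 3 called genes of lowest p per list and comparison. Replicate numbers were not used as pairs.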

Additional observations from a re-analysis of the deposited data

Results flagged for a closer look

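In 12 of the 200 combinations of a gene and a group (6%), the extreme library lay far from the nearest of the others by Dixon's criterion, which chance meets in about 1 in 20. In the libraries labelled PNA2 these were FOXM1 (1877 scaled reads, nearest 2226) and KIF23 (608, nearest 1000) in replicate 2 at 48 h, and at 72 h AURKA in replicate 3 (758 normalized reads, nearest 1362) and FOXM1 in replicate 4 (715, nearest 1750). In siRNA they were PLK1 (3679, nearest 3548) and TTK (738, nearest 836) in replicate 3, MAD2L1 in replicate 1 (1304, nearest 1085) and KIF18A in replicate 2 (542, nearest 466). In controls they were KIF2C in control 3 at 48 h (1679, nearest 1874), and at 72 h FOXM1 in control 3 (648, nearest 1591) and AURKB (1589, nearest 1314) and KIF23 (1017, nearest 906) in control 5.

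KIF23 differed from controls in opposite directions in the 2 batches at 48 h, by a mean log2 difference of -0.44 in batch A and 0.18 in batch B. The mean in batch A rests on PNA2 replicate 2 (-0.849), since replicate 1 was at -0.024, while batch B had 0.135 and 0.221. The difference did not pass limma's test with all libraries (log2 -0.61, adjusted p = 0.15). It was -0.20 without PNA2 replicate 2 and -1.03 without PNA2 replicate 1, each of which leaves 1 PNA2 library in batch A.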

How the results depend on the processing

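For the libraries labelled PNA2 at 48 h, genes called higher numbered 1, not 0, without rescaling (with or without the batch term), with quantile normalization and within batch B. Of all genes, 14.2% (14.6% without the batch term), 8.09% and 6.17% were higher in those fits. Genes called lower numbered 2, not 4, without the filter on low values, in a fit of the 2 groups alone and in batch A alone, and 0 without rescaling, with or without the batch term. In those fits 2.66%, 3.61%, 7.62% and 1.18% (0.983% without the batch term) of all genes were lower. For siRNA, 3 genes were lower without the batch term, 15 with only the 2 groups compared and 0 without rescaling, with or without the batch term. There 5.07%, 15.5% and 0.523% (0.474% without the batch term) of all genes were lower. For PNA2 against siRNA, 0 were higher and 0 lower without rescaling, with or without the batch term. Of all genes, 4.95% were higher and 7.68% lower there (4.84% and 3.61% without the batch term). Genes called lower numbered 0 without the batch term, without the filter and in a fit of the 2 groups alone, and 2 in batch A alone. The shares of all genes called lower were 8.47%, 4.77%, 12.8% and 12.0% in turn. At 72 h, 2 (5%) were higher with the length trend removed, where 9.98% of all genes were.

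Replicate numbers did not pair the samples (correlations of deviations from -0.352 to 0.108). With the replicate block 0 genes were higher and 3 lower for PNA2 at 48 h, 1 lower for siRNA, 2 higher and 2 lower for PNA2 against siRNA, and 5 higher and 11 lower at 72 h. Of all genes, 3.01% were higher and 3.05% lower, 2.75% lower, 6.04% higher and 6.97% lower, and 11.5% higher and 11.6% lower in turn. With the block CCND1, CCND2 and CCND3 were not called at 48 h (adjusted p in limma 0.138 to 0.234).

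Leaving out 1 library gave 0 to 6 higher and 2 to 9 lower for PNA2 at 48 h, 0 higher and 2 to 18 lower for siRNA (17 without PNA2 replicate 2 and the length trend), 2 to 13 higher and 0 to 4 lower for PNA2 against siRNA, 0 to 2 higher and 0 to 19 lower for the batch difference, and 5 to 6 higher and 6 to 16 lower at 72 h. Shares of all genes moved as well. For PNA2 at 48 h, 8.87% were higher where 6 members were and 10.9% lower where 9 were. For siRNA, 15.8% were lower where 18 members were (14.4% where 17 were). Against siRNA, 14.6% were higher where 13 members were and 14.1% lower where 4 were. At 72 h, 13.9% were lower where 16 members were. In siRNA, CCNB1 (0.002) and CDC20 (0.04) changed sign without rescaling and batch term. Between PNA2 and siRNA, CCNA2 (0.243), KIF23 (0.311) and TOP2A (0.351) were positive without PNA2 replicate 2 and -0.248, -0.16 and -0.372 without PNA2 replicate 1, KIF23 and TOP2A by the same values with the length trend removed too, and CKS2 at 72 h was -0.268 with it removed. Over the 5 fits, of 735 alternative values of genes called with all libraries, 542 kept the call and direction, 191 lost the call and 2 changed sign. Of 3859 values of genes not called, 3376 stayed uncalled with the same sign, 357 stayed uncalled with the opposite sign, 120 gained a call and 6 gained one in the opposite direction. The cause was not tested. Depth at 48 h cannot be had from adjusted values.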
